A study of Homo sapiens with 10 samples.

Results

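Proteins that leave a cell, or that live in its membranes, enter the secretory pathway at the endoplasmic reticulum (ER) and are carried onward in coated vesicles. The 47 genes described here encode that machinery: the signal recognition particle and the SEC61 translocon, the TRAP complex and the signal peptidase, the COPII and COPI coats with the small GTPases of the ARF family, and receptors that sort cargo between the ER and the Golgi. They were chosen by name, with earlier results of these data known, and matched on gene symbol. Of the 47 genes, 46 were found among the 36498 genes of the table, and KDELR2 was not analysed here. Their expression was measured by sequencing in AsPC-1 cells, an established human pancreatic ductal adenocarcinoma line. The 5 starved libraries came from cells held in glutamine-free RPMI, and the 5 control libraries from cells in complete RPMI, for 24 h. The labels name 10% dialysed serum with the glutamine-free medium and do not say whether the control medium had dialysed or whole serum, so the serum and the glutamine cannot be told apart. AsPC-1 is 1 cell line, and nothing says that the replicates came from separate cultures, so that p-values measure the spread between these libraries only.

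The signal recognition particle binds a signal sequence as it leaves the ribosome and brings the ribosome to the ER membrane, where the chain passes through the SEC61 channel and the signal peptidase removes the signal sequence. COPII coats bud vesicles from the ER towards the Golgi, and COPI coats, recruited to membranes by ARF GTPases, carry escaped ER residents back. Pancreatic acinar cells are known for very active secretion; AsPC-1 derives from a tumour of ductal type.

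The values are CPM, the share of each library's counted tags that fell on a gene, scaled so that the genes of a library sum to 1000000. Libraries held 164008 to 593248 counts in the starved and 141763 to 474619 counts in the control group, so that 1 count was worth 1.69 to 7.05 CPM. Fewer cells of a type and less RNA per cell cannot be told apart in such bulk libraries, nor can a gene's change from a change in the total RNA of the cell. Tested ductal markers fell in 5 of 6 cases (KRT8, KRT18, KRT19, EPCAM and MSLN), the summed level of the list was 2633 to 2916 CPM in starved and 12196 to 13302 CPM in control libraries, and MUC1 had 0 and 1 counts over the groups. Acinar markers had 6 of 8 genes at 0, with sums of 0 to 5.31 CPM in starved and 0 to 5.06 CPM in control libraries. Sums for fibroblast markers, with COL3A1 and DCN at 0, were 21.2 to 36.6 CPM in starved and 84.6 to 157 CPM in control libraries. LUM, the 1 tested gene of that list, was called lower. Sums for leukocyte markers, with CD79A at 0, were 74.4 to 122 CPM in starved and 96.9 to 141 CPM in control libraries. The 2 tested leukocyte markers were called in opposite directions, CD68 higher and LYZ lower. Sums for endothelial markers, with CDH5 and CLDN5 at 0, were 0 to 36.6 CPM in starved and 0 to 4.97 CPM in control libraries, and their 1 tested gene was not called. The part of these markers in the results below was not tested.

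Genes of the secretory machinery differed unevenly between glutamine-starved and control cells. ARF4, SRP54, SEC24A, SEC31A, SEC61G and COPZ1 were higher in every starved library than in any control library, by 1.82 to 4.01-fold in the mean, and LMAN1, SPCS1 and KDELR1 were lower in every starved library than in any control library. Of the 44 members with a mean of at least 5 CPM, 12 were higher in starved cells (27.3%, against 17.2% of all 11202 genes tested) and 5 were lower (11.4%, against 26.1% of all genes tested), where 43.3% of all genes tested were called in either direction. The remaining 27 were not called at an adjusted p of 0.05. Groups did not overlap for 7 members with higher starved values (15.9%, against 12.5% of all genes tested) and for 3 members with lower starved values (6.82%, against 17.9%). The median log2 change of the members was 0.09 and that of all genes tested was -0.22, with 34 of the 44 members above the median of all genes. Changes ran from -3.59 to 1.99, and 26 members had changes of less than 0.5 in either direction. With the filter at 20 CPM instead, 14 of 42 members were higher and 5 lower, against 23.4 and 31.7% of all 7005 genes. The median log2 change of those genes was -0.14. All log2 changes are starved minus control on the log2(CPM + 1) scale, on which the size of a change in a low gene depends on the pseudocount and on libraries with no count, and they come from limma-trend fitted over all genes tested with Benjamini-Hochberg adjustment. Of the 17 called members, 16 were also called by edgeR on the recovered counts, which called 47.8% of all genes tested; SEC23A was not (adjusted p = 0.0693). DESeq2, which called 39.5% of all genes tested, called 14 of the 17, without COPA (adjusted p = 0.0517), SEC23A (0.113) and SEC63 (0.0662).

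**Figure D1:**
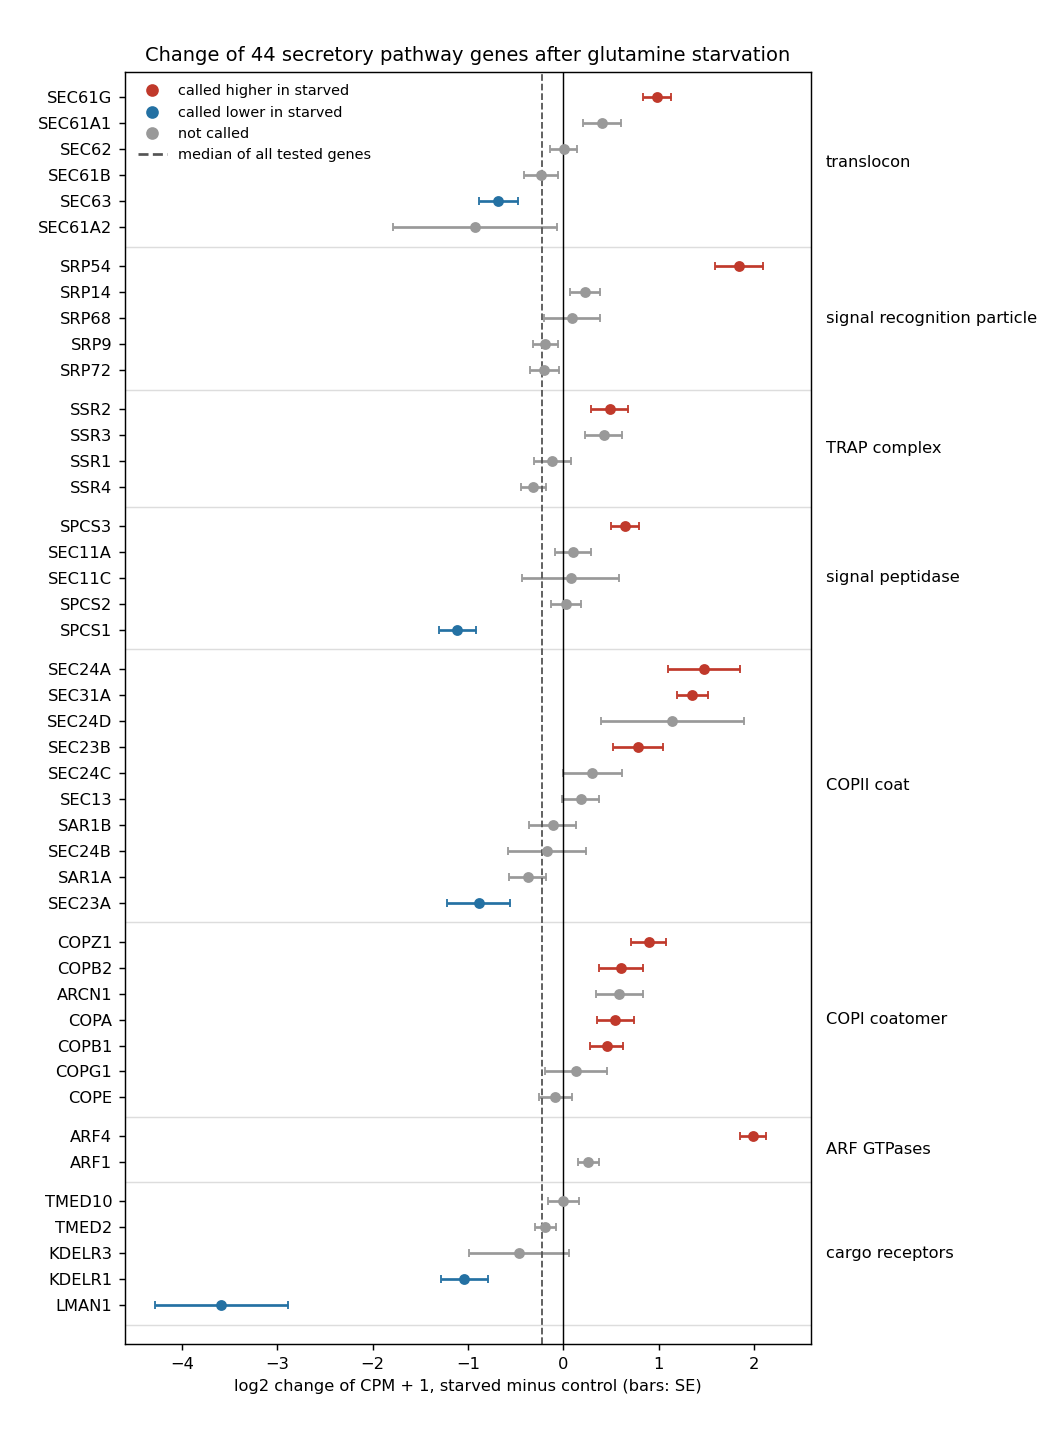
Log2 change (starved minus control, log2(CPM + 1) scale) of each of the 44 tested members, grouped by role, with bars of 1 standard error. Colours mark called and uncalled members, and a line marks the median of all genes tested at -0.22. ARF4 stands highest at 1.99 and LMAN1 lowest at -3.59.

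Within the signal recognition particle, SRP54 alone of 5 members was called, where 43.3% of all genes tested were called in either direction. SRP54 is the GTPase subunit that holds the signal sequence. It had 105, 109, 121, 146 and 127 CPM in starved replicates 1 to 5, against 21.2, 37.9, 24.9, 34.4 and 55.6 CPM in control replicates 1 to 5. Every starved library lay above every control library. The mean was 3.50-fold higher in starved cells, at 122 ± 16.5 CPM in starved and 34.8 ± 13.5 CPM in control libraries (SD, n = 5 each), with a log2 change of 1.85 (SE 0.25, limma adjusted p = 4.2e-06). The gene has an annotated partner on the opposite strand, SRP54-AS1, which averaged 3.63 CPM in starved and 8.0 CPM in control libraries. SRP9 and SRP14, which together slow the ribosome, did not pass the test, and neither did SRP68 and SRP72. SRP9 averaged 297 ± 51.6 CPM in starved and 336 ± 39 CPM in control libraries, and SRP14 averaged 199.9 ± 40.4 CPM in starved and 170.5 ± 30.2 CPM in control libraries. SRP68 averaged 47.7 ± 15.6 CPM in starved and 43.2 ± 8.79 CPM in control libraries, and SRP72 averaged 179 ± 33.9 CPM in starved and 204 ± 28.1 CPM in control libraries. The log2 changes of these 4 genes lay between -0.20 and 0.23. The summed level of the particle's protein genes overlapped between the groups, at 719 to 971 CPM in starved and 736 to 861 CPM in control libraries.

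Of the translocon's 6 members, SEC61G was higher and SEC63 was lower in starved cells, and 4 were not called. The shares over all genes tested were 17.2% higher and 26.1% lower. SEC61G encodes the small gamma subunit that clamps the channel. Its values were 339, 377, 288, 305 and 334 CPM in starved replicates 1 to 5, against 148, 183, 152, 133 and 227 CPM in control replicates 1 to 5. The highest control library still lay below the lowest starved library. Starved cells had 1.95-fold the control mean, with a log2 change of 0.98 (SE 0.15, limma adjusted p = 1.33e-05). SEC63, a membrane protein that recruits the chaperone BiP to the channel, had 89.3, 74.4, 55.8, 79.3 and 74.3 CPM in starved replicates 1 to 5, against 148, 120.1, 84.5, 157 and 101 CPM in control replicates 1 to 5. Control libraries were mostly higher, but the groups overlapped, because starved replicate 1 lay above control replicate 3. The fall had a log2 change of -0.68 (SE 0.20, limma adjusted p = 0.00978). The call was lost with DESeq2 (0.0662), without control replicates 1 and 2 together (0.0733) and after thinning every library to the smallest total (0.150, adjusted p in each case). A related pseudogene, SEC63P1, averaged 8.12 CPM in starved and 9.96 CPM in control libraries, so that some reads may be split between the copies.

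The pore-forming subunit SEC61A1 averaged 108 ± 18.4 CPM in starved and 82.1 ± 19.4 CPM in control libraries (SD, n = 5 each), a log2 change of 0.41 (SE 0.20, limma adjusted p = 0.101). That change passed the threshold with TMM scaling (0.0489), median-of-ratios scaling (0.0465), edgeR (0.0165) and without control replicate 4 (0.0479, adjusted p in each case). SEC61B, the beta subunit, averaged 156 ± 37.3 CPM in starved and 182 ± 31.7 CPM in control libraries, and its difference did not pass (log2 change -0.23, limma adjusted p = 0.294). SEC62, which helps short and late-arriving chains into the channel, averaged 318 ± 69.8 CPM in starved and 313 ± 35.8 CPM in control libraries, with a log2 change of 0.00 (SE 0.14). SEC61A2, a second form of the pore subunit, rested on 13 counts over the starved and 16 counts over the control libraries and supports no comparison: its log2 change was -0.93 with limma and 0.02 with edgeR, and it was called by neither. SEC61A1 and SEC61G, partners in the channel, thus had log2 changes of 0.41 and 0.98, and the difference between these changes was not tested.

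TRAP, a complex beside the channel that helps certain signal sequences to engage, had SSR2 called as higher and the other 3 subunits uncalled. Over all genes tested, 17.2% were higher and 26.1% were lower. SSR2 had 172, 179, 191, 122 and 127 CPM in starved replicates 1 to 5, against 98.8, 124, 139, 133 and 73.3 CPM in control replicates 1 to 5. The groups overlapped: starved replicates 4 and 5 lay within the control range. Its log2 change of 0.49 (SE 0.19, limma adjusted p = 0.0456) was close to the threshold. The call was lost without starved replicate 1 (0.0981), 2 (0.0993) and 3 (0.116) and without control replicate 1 (0.0846), 2 (0.0516) and 5 (0.151) (adjusted p in parentheses). It was also lost with no filter (0.0745), after thinning (0.0788) and without control replicates 1 and 2 together (0.104). SSR1 averaged 115 ± 18.4 CPM in starved and 127 ± 35.7 CPM in control libraries, SSR3 averaged 127 ± 24.5 CPM in starved and 95.1 ± 19.9 CPM in control libraries, and SSR4 averaged 186 ± 19.6 CPM in starved and 233 ± 32.1 CPM in control libraries. SSR3 had a log2 change of 0.42 (SE 0.19, limma adjusted p = 0.0826) and passed with TMM scaling, median-of-ratios scaling, edgeR and without starved replicate 5 (adjusted p = 0.0399). SSR4 leaned the other way, with a log2 change of -0.31 (SE 0.14, limma adjusted p = 0.0662), and passed without control replicate 2 (0.0453) or starved replicate 3 (0.0471, adjusted p) and with quantile normalization. The neighbouring IDH3G, on the opposite strand to SSR4, averaged 55.6 CPM in starved and 72.3 CPM in control libraries.

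Signal peptidase subunits went in opposite directions. SPCS1, a small non-catalytic subunit, had 109.6, 79.3, 88.3, 54.9 and 127 CPM in starved replicates 1 to 5, against 169, 215, 174, 207 and 199.7 CPM in control replicates 1 to 5. All starved libraries lay below all control libraries. The control mean was 2.10 times the starved mean, with a log2 change of -1.11 (SE 0.19, limma adjusted p = 8.5e-05). SPCS3, an accessory subunit needed for cleavage, had 204, 263, 172, 219.5 and 196 CPM in starved replicates 1 to 5, against 113, 154, 132, 133 and 136 CPM in control replicates 1 to 5. Here every starved library lay above every control library. SPCS3 rose with a log2 change of 0.65 (SE 0.15, limma adjusted p = 0.00127), a call that was lost on thinning (adjusted p = 0.0540). The catalytic subunits did not pass: SEC11A averaged 98.1 ± 15.6 CPM in starved and 92.1 ± 20.1 CPM in control libraries, and SEC11C averaged 41.6 ± 22.4 CPM in starved and 43.5 ± 28.1 CPM in control libraries. SPCS2 averaged 212 ± 38.7 CPM in starved and 206 ± 29.5 CPM in control libraries, with a log2 change of 0.03 (SE 0.15); its pseudogene SPCS2P4 averaged 29.7 CPM in starved and 17.9 CPM in control libraries. Opposite SPCS1 lie GLT8D1, at 11.6 CPM in starved and 16.8 CPM in control libraries, and NEK4, at 11.9 CPM in starved and 21.5 CPM in control libraries. The summed level of the 5 subunits was nearly level, at 655 ± 78.6 CPM in starved and 669 ± 64.6 CPM in control libraries.

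**Figure D2:**
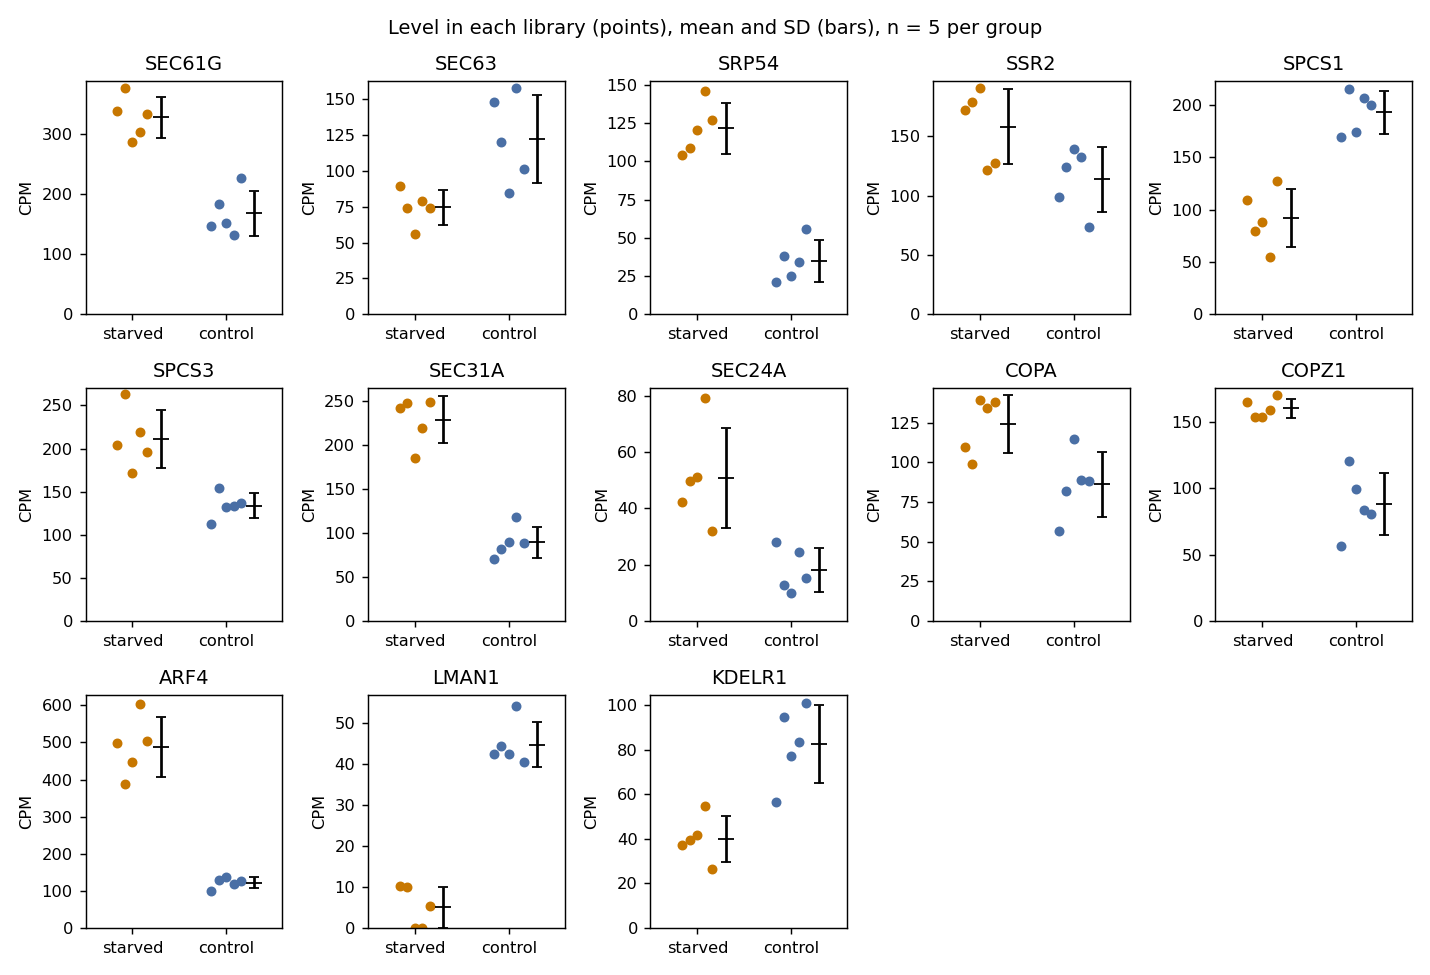
CPM of each of the 13 members given library by library, with 5 starved libraries left of 5 control libraries in each panel and the mean and SD beside the points. Groups are apart for 10 of these genes, for example ARF4 at 387 to 604 CPM in starved and 98.8 to 137 CPM in control libraries, and they overlap for SEC63, SSR2 and COPA.

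COPII had 3 higher, 1 lower and 6 uncalled members of 10, where 17.2% of all genes tested were higher and 26.1% lower. SEC31A, the rod of the outer cage, had 243, 248, 186, 219.5 and 249 CPM in starved replicates 1 to 5, against 70.5, 82.2, 89.5, 118 and 88.5 CPM in control replicates 1 to 5. The starved values were more than the highest control value in all 5 libraries. Starved cells had 2.55-fold the control mean, with a log2 change of 1.35 (SE 0.16, limma adjusted p = 7.22e-07). THAP9-AS1, which overlaps SEC31A on the same strand and whose reads could not be told apart from it in the shared stretch, averaged 82.6 CPM in starved and 26.1 CPM in control libraries. SEC13, the partner of SEC31A in the cage, averaged 87.9 ± 15.5 CPM in starved and 77 ± 10.3 CPM in control libraries and was not called (log2 change 0.18, limma adjusted p = 0.469).

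SEC24 proteins bind the cargo in the inner coat, and human cells have the forms A to D. SEC24A had 42.1, 49.6, 51.1, 79.3 and 31.8 CPM in starved replicates 1 to 5, against 28.2, 12.6, 9.94, 24.6 and 15.2 CPM in control replicates 1 to 5. Low counts lie behind these values (65 counts over the starved and 25 over the control libraries), and the lowest starved library exceeded the highest control library. Its mean was 2.80-fold higher in starved cells, with a log2 change of 1.48 (SE 0.38, limma adjusted p = 0.00326). SEC24B averaged 23.6 ± 5.96 CPM in starved and 29.1 ± 16.1 CPM in control libraries, SEC24C averaged 59.4 ± 18.3 CPM in starved and 48.2 ± 15.6 CPM in control libraries, and SEC24D averaged 23.4 ± 11.8 CPM in starved and 13.4 ± 9.04 CPM in control libraries. None of these 3 forms passed the test. SEC24D, with 33 counts over the starved and 22 over the control libraries, had a log2 change of 1.14 (SE 0.75, limma adjusted p = 0.228). SAR1B overlaps SEC24A on the opposite strand, averaged 80.9 ± 30.9 CPM in starved and 83.1 ± 11.9 CPM in control libraries and was not called. SAR1 is the GTPase that starts the coat, and its other form, SAR1A, averaged 89.6 ± 25.4 CPM in starved and 114 ± 13.7 CPM in control libraries, uncalled (log2 change -0.38, limma adjusted p = 0.129) except without starved replicate 4 (adjusted p = 0.0350).

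SEC23, the partner of SEC24, has forms A and B, which were called in opposite directions. SEC23A averaged 31.3 ± 11.9 CPM in starved and 57.5 ± 17.4 CPM in control libraries and was lower, with a log2 change of -0.89 (SE 0.33, limma adjusted p = 0.0346). SEC23B averaged 74.1 ± 20.5 CPM in starved and 41.4 ± 7.17 CPM in control libraries and was higher, with a log2 change of 0.79 (SE 0.26, limma adjusted p = 0.0192). The groups overlapped for each of them. The SEC23A call was lost with 5 other scalings or tests and without starved replicate 2 (0.0916) and 3 (0.0554) and without control replicate 1 (0.0856), 2 (0.0528), 4 (0.0808) and 5 (0.0677); the SEC23B call was lost without starved replicate 3 (0.0518) and 5 (0.05004) (adjusted p in parentheses). Without control replicates 1 and 2 together, both calls were lost, at adjusted p = 0.147 and 0.0669. The log2 ratio of SEC23A over SEC23B was -1.25 ± 0.27 in starved and 0.42 ± 0.71 in control libraries (SD, n = 5 each). The difference between them was -1.67 (SE 0.34). A two-sided exact permutation test gave the smallest p it can reach with 5 against 5 libraries, 0.00794. It became 0.0556 after Benjamini-Hochberg adjustment over 7 paralog pairs and did not pass. Even this smallest p cannot pass on its own after that adjustment, so the adjusted test decides nothing about this pair.

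In SEC24A over SEC24B the ratio differed by 1.65 (SE 0.63, exact permutation p = 0.0317, adjusted 0.111). The remaining 5 pairs (SEC61A1 with SEC61A2, SEC11A with SEC11C, SEC24C with SEC24D, SAR1A with SAR1B, KDELR1 with KDELR3) differed by -0.84 to 1.34, with standard errors of 0.29 to 1.00 and adjusted exact p-values of 0.589 to 0.984. These intervals are wide, and they do not show that the paralogs of a pair moved alike.

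**Figure D3:**
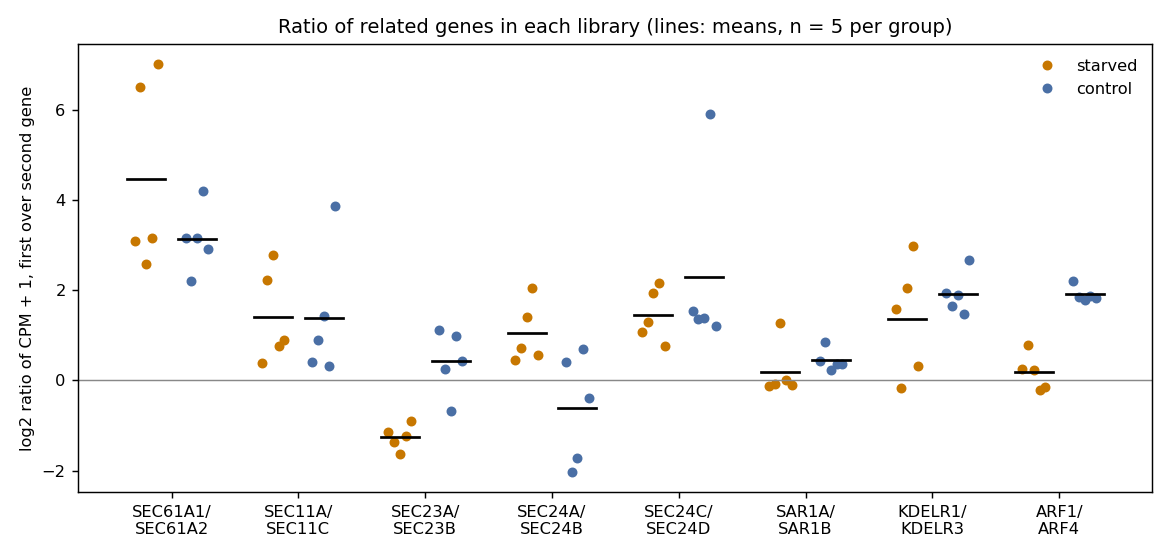
Log2 ratio of CPM + 1 between the paralogs of a pair, for each library, with starved libraries left of control libraries and bars at the means. For SEC23A over SEC23B all 5 starved libraries lie below the control mean of 0.42; ARF1 over ARF4, added after its values were seen, averages 0.18 in starved and 1.90 in control libraries.

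The COPI coat, or coatomer, has 7 subunits here, of which 4 were higher in starved cells, 0 were lower and 3 were not called. Of all genes tested, 17.2% were higher and 26.1% were lower. The median log2 change of the subunits was 0.55, against -0.22 for all genes tested. COPZ1, the small zeta subunit, had 165, 154, 153, 159 and 169.8 CPM in starved replicates 1 to 5, against 56.4, 120.1, 99.4, 83.6 and 80.9 CPM in control replicates 1 to 5. Starved libraries were close to each other, and all lay above the control libraries. The mean was 1.82-fold higher in starved cells, with a log2 change of 0.90 (SE 0.18, limma adjusted p = 0.000491). COPA, the alpha subunit of the outer layer, had 109.6, 99.2, 139, 134 and 138 CPM in starved replicates 1 to 5, against 56.4, 82.2, 114, 88.6 and 88.5 CPM in control replicates 1 to 5. Here starved replicates 1 and 2 lay below control replicate 3, so the groups overlapped. COPA rose with a log2 change of 0.55 (SE 0.20, limma adjusted p = 0.0286). COPB2, another outer-layer subunit, averaged 92.8 ± 25.4 CPM in starved and 60.4 ± 15.2 CPM in control libraries (log2 change 0.60, limma adjusted p = 0.0402). COPB1, the beta subunit, averaged 189 ± 44.1 CPM in starved and 136 ± 16.9 CPM in control libraries (log2 change 0.45, limma adjusted p = 0.0355), and PSMA1, which overlaps it on the same strand, was lower in mean, at 146 CPM in starved and 225 CPM in control libraries.

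Calls of these coatomer genes other than COPZ1 depended on single libraries and on the processing. The COPA call was lost without starved replicate 3 (0.0660), 4 (0.0548) and 5 (0.0609) and without control replicate 1 (0.0761) and 2 (0.0517), the COPB1 call without starved replicate 1 (0.0579), 2 (0.0646), 4 (0.0627) and 5 (0.110) and without control replicate 1 (0.0594), 4 (0.0562) and 5 (0.0907), and the COPB2 call without starved replicate 1 (0.0762), 3 (0.0683) and 5 (0.121) and without control replicate 1 (0.0758), 2 (0.0997) and 5 (0.0796) (adjusted p in parentheses); all 3 were lost without control replicates 1 and 2 together, at 0.181, 0.0782 and 0.223. With no filter on low genes all 3 were lost as well (adjusted p = 0.0727 for COPA, 0.0709 for COPB1 and 0.0932 for COPB2). Thinning ended the calls of COPA (0.0593) and COPB1 (0.177), and DESeq2 ended that of COPA (0.0517). ARCN1, the delta subunit, averaged 129 ± 50.6 CPM in starved and 83.1 ± 24 CPM in control libraries and missed the threshold (log2 change 0.59, limma adjusted p = 0.0551), though 12 of 22 alternatives called it, among them edgeR (0.000364) and the fits without control replicate 4 (0.0261) or without starved replicate 2 (0.0264) or 3 (0.0264). COPE averaged 121 ± 26.9 CPM in starved and 126 ± 10.6 CPM in control libraries, and COPG1 averaged 41.3 ± 14.8 CPM in starved and 37.4 ± 12.6 CPM in control libraries; neither passed. As a sum, the coatomer genes reached 857 ± 106 CPM in starved and 616 ± 72.5 CPM in control libraries, and no starved library (730 to 1003 CPM) fell within the control range (536 to 718 CPM).

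ARF4 had the largest rise of the tested members. It is a small GTPase of the early secretory pathway that works at the boundary of the ER and the Golgi. Its values were 497, 387, 446, 604 and 504 CPM in starved replicates 1 to 5, against 98.8, 129, 137, 118 and 126 CPM in control replicates 1 to 5. The lowest starved library was well above the highest control library. Starved cells had 4.01-fold the control mean, with a log2 change of 1.99 (SE 0.14, limma adjusted p = 1.57e-10). ARF1, the family member best known for recruiting coatomer, averaged 552 ± 82 CPM in starved and 456 ± 15.2 CPM in control libraries and just missed the threshold (log2 change 0.26, limma adjusted p = 0.0518). It passed with edgeR (0.00302), DESeq2 (0.00704), TMM scaling (0.0162), median-of-ratios scaling (0.0118), a filter at 20 CPM (0.0430) and without starved replicate 5 (0.0183, adjusted p in each case). The log2 ratio of ARF1 over ARF4, a pair chosen after its values were seen, was 0.18 ± 0.40 in starved and 1.90 ± 0.17 in control libraries. The difference was -1.72 (SE 0.19, two-sided exact permutation p = 0.00794, unadjusted). Because the pair was chosen on these values, that p-value decides nothing. ARF3, with 0 counts in starved and 1 count in control libraries, and ARF5, with 1 and 6 counts, were below the filter and were not tested. ARF3 and ARF5 are overlapped on the same strand by other genes, whose reads cannot be told apart from theirs in a shared stretch: AC073610.5 (68.1 CPM in starved, 101 CPM in control libraries) for ARF3 and FSCN3 (204 CPM in starved, 131 CPM in control libraries) for ARF5.

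Of the 5 cargo receptors tested, 2 were lower (26.1% of all genes tested were), 0 were higher (17.2% of all genes tested were) and 3 were not called. Among 15 other cargo receptors tested, 2 were higher and 4 were lower. LMAN1 is a mannose-binding lectin that carries glycoproteins out of the ER in COPII vesicles. It had 10.1, 9.92, 0, 0 and 5.31 CPM in starved replicates 1 to 5, against 42.3, 44.2, 42.3, 54.1 and 40.4 CPM in control replicates 1 to 5. Starved replicates 3 and 4 had no count, and each control library lay above each starved library. The control mean was 8.82 times the starved mean (9 counts over the starved and 71 over the control libraries), with a log2 change of -3.59 (SE 0.70, limma adjusted p = 0.000276). The size of this change depended on the setting: it was -2.59 with edgeR and lay between -4.07 and -2.46 over the 22 alternatives, and the fall was called in each of them. KDELR1, a receptor that returns ER residents bearing the KDEL signal from the Golgi, had 37.1, 39.7, 41.8, 54.9 and 26.5 CPM in starved replicates 1 to 5, against 56.4, 94.8, 77, 83.6 and 101 CPM in control replicates 1 to 5. No starved library reached the lowest control library. The control mean was 2.07 times the starved mean, with a log2 change of -1.04 (SE 0.25, limma adjusted p = 0.00209). KDELR3 averaged 18.6 ± 15.6 CPM in starved and 21.6 ± 7.51 CPM in control libraries, which was not called. TMED2 and TMED10, p24 proteins that help load cargo on both coats, did not pass. TMED2 averaged 363 ± 49.1 CPM in starved and 411 ± 23.2 CPM in control libraries, with a log2 change of -0.19, and TMED10 averaged 113 ± 13.6 CPM in starved and 113 ± 13.2 CPM in control libraries, with a log2 change of 0.00. The sum of the receptors was 474 to 589 CPM in starved and 642 to 699 CPM in control libraries, without overlap.

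**Figure D4:**
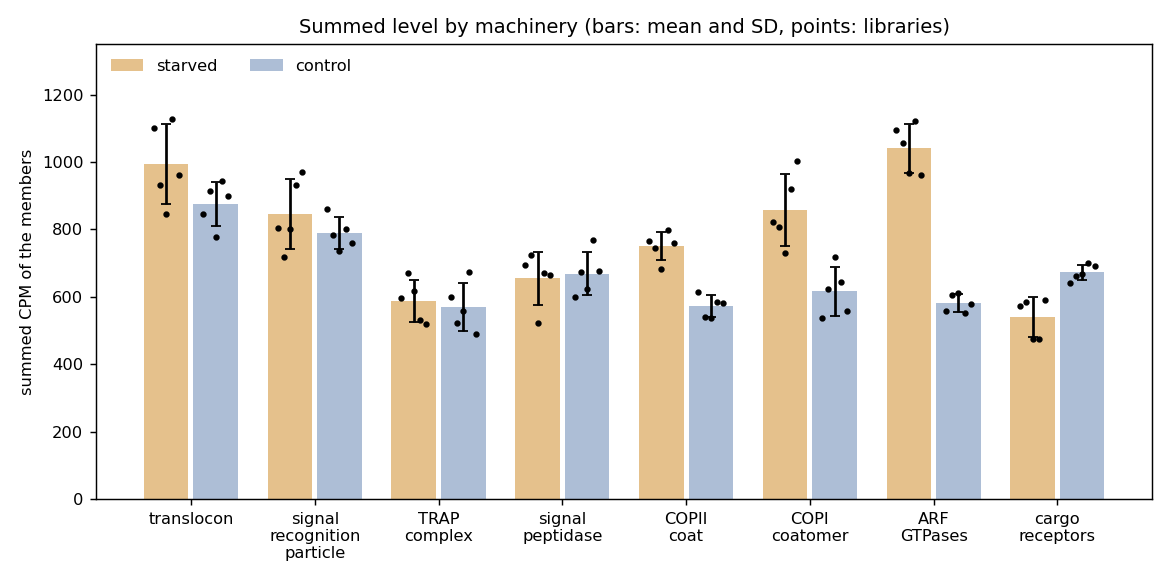
Summed CPM of the members of each role in every library, starved left of control, as points over bars at the mean with the SD. Starved libraries lie above control libraries for the COPII coat (683 to 799 against 537 to 614 CPM), the COPI coatomer and the ARF GTPases (961 to 1122 against 551 to 611 CPM), below them for the cargo receptors, and overlap them for the translocon, the signal recognition particle, TRAP and the signal peptidase.

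Summed over all 46 members in the table, the machinery took 6267 ± 371 CPM in starved and 5342 ± 186 CPM in control libraries (SD, n = 5 each), a ratio of 1.17. The ranges, 5639 to 6579 CPM in starved and 5229 to 5668 CPM in control libraries, overlapped, since the lowest starved library lay below the highest control library. By role the ratio of starved to control sums was 1.79 for the ARF GTPases, 1.39 for coatomer, 1.31 for COPII and 0.802 for the cargo receptors, and it lay between 0.979 and 1.13 for the 4 groups that act at the translocon. A sum is weighted by its highest genes, and ARF4 and ARF1 make up the ARF sum.

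Promoter sequences are shown for the coat genes called higher whose entry held the letters ACGTGG, and for LMAN1, the member that fell most, for comparison. ACGTGG is the core of the unfolded protein response element, a sequence known to bind the ER stress factors XBP1 and ATF6; it was searched on both strands, and it overlaps the CCACG of the ER stress response element when read on the other strand. RefSeq sequences of GRCh38.p14, 250 bases before to 50 bases after the start, were matched for 43 of the 46 members by symbol; the files' own build is hg19, and no coordinate of it is used. The windows are COPA at chr1:160343201-160343500 (minus strand), COPB1 at chr11:14499762-14500061 (minus strand), COPB2 at chr3:139389598-139389897 (minus strand), COPZ1 at chr12:54324881-54325180 (plus strand), SEC31A at chr4:82891016-82891315 (minus strand), SEC24A at chr5:134648535-134648834 (plus strand) and LMAN1 at chr18:59359216-59359515 (minus strand), each 5′ to 3′ on the gene's strand, with ACGTGG or its reverse complement CCACGT in capitals and, for genes with several starts, the window with the lowest coordinate.
COPA: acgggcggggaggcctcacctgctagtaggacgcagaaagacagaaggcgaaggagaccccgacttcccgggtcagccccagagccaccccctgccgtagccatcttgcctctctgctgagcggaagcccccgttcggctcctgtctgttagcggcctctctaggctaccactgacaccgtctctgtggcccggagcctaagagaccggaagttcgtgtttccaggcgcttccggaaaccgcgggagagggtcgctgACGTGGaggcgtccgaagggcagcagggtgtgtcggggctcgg
COPB1: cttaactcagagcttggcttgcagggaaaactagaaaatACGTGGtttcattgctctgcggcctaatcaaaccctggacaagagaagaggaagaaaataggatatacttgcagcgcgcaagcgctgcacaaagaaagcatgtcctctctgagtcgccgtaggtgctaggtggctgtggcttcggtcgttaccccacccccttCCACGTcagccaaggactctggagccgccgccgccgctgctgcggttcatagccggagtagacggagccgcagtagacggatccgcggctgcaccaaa
COPB2: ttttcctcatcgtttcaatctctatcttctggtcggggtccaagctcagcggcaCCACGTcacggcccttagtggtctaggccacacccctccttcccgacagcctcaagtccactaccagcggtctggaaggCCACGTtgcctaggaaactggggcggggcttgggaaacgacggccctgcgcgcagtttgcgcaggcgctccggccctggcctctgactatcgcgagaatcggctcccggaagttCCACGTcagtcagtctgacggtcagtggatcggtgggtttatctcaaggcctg
COPZ1: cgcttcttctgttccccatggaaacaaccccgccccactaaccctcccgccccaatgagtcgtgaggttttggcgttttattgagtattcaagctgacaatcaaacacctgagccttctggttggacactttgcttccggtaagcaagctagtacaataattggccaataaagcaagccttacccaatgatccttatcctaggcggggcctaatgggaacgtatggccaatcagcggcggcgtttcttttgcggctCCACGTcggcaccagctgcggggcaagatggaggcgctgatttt
SEC31A: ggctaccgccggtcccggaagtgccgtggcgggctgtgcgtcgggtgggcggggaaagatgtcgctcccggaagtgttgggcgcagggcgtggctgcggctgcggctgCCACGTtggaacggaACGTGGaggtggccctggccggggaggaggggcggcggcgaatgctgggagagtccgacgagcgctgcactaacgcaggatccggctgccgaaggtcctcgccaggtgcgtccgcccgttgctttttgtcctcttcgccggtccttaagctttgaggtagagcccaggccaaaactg
SEC24A: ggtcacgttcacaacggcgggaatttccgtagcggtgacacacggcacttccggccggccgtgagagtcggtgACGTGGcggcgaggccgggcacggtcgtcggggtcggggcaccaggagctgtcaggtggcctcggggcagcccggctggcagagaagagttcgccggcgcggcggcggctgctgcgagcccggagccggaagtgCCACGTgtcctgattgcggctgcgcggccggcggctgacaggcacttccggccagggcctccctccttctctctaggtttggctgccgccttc
LMAN1: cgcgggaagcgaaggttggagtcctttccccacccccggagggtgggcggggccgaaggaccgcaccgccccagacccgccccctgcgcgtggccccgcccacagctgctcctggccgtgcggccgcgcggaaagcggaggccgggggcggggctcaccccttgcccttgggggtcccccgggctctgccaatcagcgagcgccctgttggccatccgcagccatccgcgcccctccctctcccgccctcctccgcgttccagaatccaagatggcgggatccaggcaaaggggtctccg
The windows of COPA, COPB1, COPB2, COPZ1, SEC31A and SEC24A hold the letters because they were picked for them, and that of LMAN1 does not. This contrast was therefore set by the choice of windows. SEC23B, also a coat gene called higher, has no window with the letters, whereas SEC23A and SEC63, called lower, have them. ACGTGG was found in at least 1 window of 23 of the 43 members (53.5%), against 16.4% of the 7833 tested genes with a promoter entry and 9.72% of all 35116 promoters. By role it was found in 6 of 7 coatomer genes (all but COPE), 6 of 9 COPII genes, and 0 of 5 signal recognition particle genes. By call it was found in 6 of 11 higher, 2 of 4 lower and 15 of 26 uncalled members with an entry. The shorter CCACG was found in 86.0% of the members and 58.2% of tested genes, and TGACG, part of the cyclic AMP response element, in 55.8% of the members and 42.0% of tested genes. The full ER stress response element (CCAAT and CCACG with 9 bases between), its second form (ATTGG and CCACG with 1 base between) and the amino acid response element TGATGNAA, bound by ATF4, were in 0 of 43 members, against 0.166%, 0.179% and 2.66% of tested genes. A match is a stretch of letters, not a site shown to be used.

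Around the members, 132 other genes of the pathway were tested in 9 lists, of which 28 were higher in starved cells (17.2% of all genes tested were), 16 were lower (26.1% of all genes tested were) and 88 were not called. Upstream of the translocon, 2 of 13 targeting genes were higher and 1 was lower. SRPR, the docking receptor of the signal recognition particle, averaged 215 ± 27.8 CPM in starved and 114 ± 21.2 CPM in control libraries (log2 change 0.92, limma adjusted p = 7.71e-05). GET4, which hands tail-anchored proteins to the insertion route of the ER, averaged 255 ± 42.7 CPM in starved and 102 ± 20.8 CPM in control libraries (log2 change 1.33, limma adjusted p = 1.59e-06). Its downstream receptor subunit CAMLG was lower, at 22.8 ± 3.66 CPM in starved and 50.5 ± 15.2 CPM in control libraries (log2 change -1.07, limma adjusted p = 0.0111), and was not called after thinning (adjusted p = 0.177).

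Beside the channel, the oligosaccharyltransferase, which adds sugar chains to entering proteins, had 2 of 11 subunits higher and 1 lower. Among all genes tested, 17.2% were higher and 26.1% were lower. DAD1, a small structural subunit, averaged 379 ± 30.0 CPM in starved and 169 ± 30.6 CPM in control libraries (log2 change 1.18, limma adjusted p = 4.2e-07), and OST4, another small subunit, averaged 379.7 ± 58.4 CPM in starved and 278 ± 57.7 CPM in control libraries (log2 change 0.46, limma adjusted p = 0.0142). STT3B, a catalytic subunit, was lower, at 44.1 ± 23.2 CPM in starved and 93.6 ± 11.7 CPM in control libraries (log2 change -1.24, limma adjusted p = 0.00292). Of the 10 subunits of the ER membrane complex, an insertase, 0 were higher and 1 was lower: EMC4, at 145 ± 22.4 CPM in starved and 211 ± 23.4 CPM in control libraries (log2 change -0.55, limma adjusted p = 0.00459).

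Regulators of the coats were mostly higher where called. At ER exit sites 5 of 16 genes were higher and 1 was lower, where 17.2% of all genes tested were higher and 26.1% lower. The scaffold SEC16A averaged 80.0 ± 18.2 CPM in starved and 43.8 ± 9.17 CPM in control libraries, SEC23IP, a binding partner of SEC23, averaged 85.6 ± 16.2 CPM in starved and 47.4 ± 7.67 CPM in control libraries, and TRAPPC6B, a subunit of the TRAPP tethering complex, averaged 81.3 ± 19.4 CPM in starved and 29.1 ± 12.4 CPM in control libraries. All 3 passed, with log2 changes of 0.85, 0.83 and 1.53. Of 10 COPI regulators 3 were higher and 0 were lower. GBF1, the exchange factor that loads ARF GTPases at the early Golgi, averaged 87 ± 10.5 CPM in starved and 44.8 ± 16.4 CPM in control libraries (log2 change 1.01, limma adjusted p = 0.00273). ARFGAP1, which switches ARF1 off on COPI membranes, averaged 47.3 ± 8.0 CPM in starved and 13.3 ± 5.83 CPM in control libraries (log2 change 1.83, limma adjusted p = 0.000635). ARFGAP3 averaged 34.5 ± 7.36 CPM in starved and 17 ± 12 CPM in control libraries (log2 change 1.30, limma adjusted p = 0.0457), a call that was lost without starved replicate 1 (0.0785), 2 (0.0944), 3 (0.0692) and 5 (0.0778) and without control replicate 2 (0.0727), 3 (0.0624) and 5 (0.130) (adjusted p in parentheses) and with a pseudocount of 0.5 (0.0563). Thinning to the smallest library also ended the calls of SEC16A (0.0952), GBF1 (0.0662) and ARFGAP3 (0.0708).

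Among vesicle tethers and SNAREs, 8 of 25 genes were higher and 1 was lower, against 17.2% higher and 26.1% lower of all genes tested. BET1, a SNARE of ER-to-Golgi vesicles, averaged 143 ± 34.4 CPM in starved and 44.2 ± 13.7 CPM in control libraries (log2 change 1.69, limma adjusted p = 5.32e-06). Its relative BET1L averaged 98.1 ± 12.9 CPM in starved and 39.4 ± 2.54 CPM in control libraries (log2 change 1.29, limma adjusted p = 3.81e-05), and STX5, the syntaxin of the same fusion step, averaged 70.7 ± 10.7 CPM in starved and 24 ± 5.82 CPM in control libraries (log2 change 1.54, limma adjusted p = 0.000122). In all 3 the starved libraries lay above the control libraries. Of the other cargo receptors, 2 of 15 were higher and 4 were lower. TMED4, a p24 protein, averaged 44 ± 4.29 CPM in starved and 153 ± 24.4 CPM in control libraries (log2 change -1.77, limma adjusted p = 1.41e-07), and CNIH4, a cornichon-family export receptor, averaged 238 ± 24.3 CPM in starved and 520.3 ± 76.7 CPM in control libraries (log2 change -1.12, limma adjusted p = 1.88e-07). TMED1 was higher, at 64.7 ± 16.8 CPM in starved and 32.4 ± 10.7 CPM in control libraries (log2 change 1.02, limma adjusted p = 0.0108), a call that was lost without control replicates 1 and 2 together (log2 change 0.75, adjusted p = 0.0517).

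**Figure D5:**
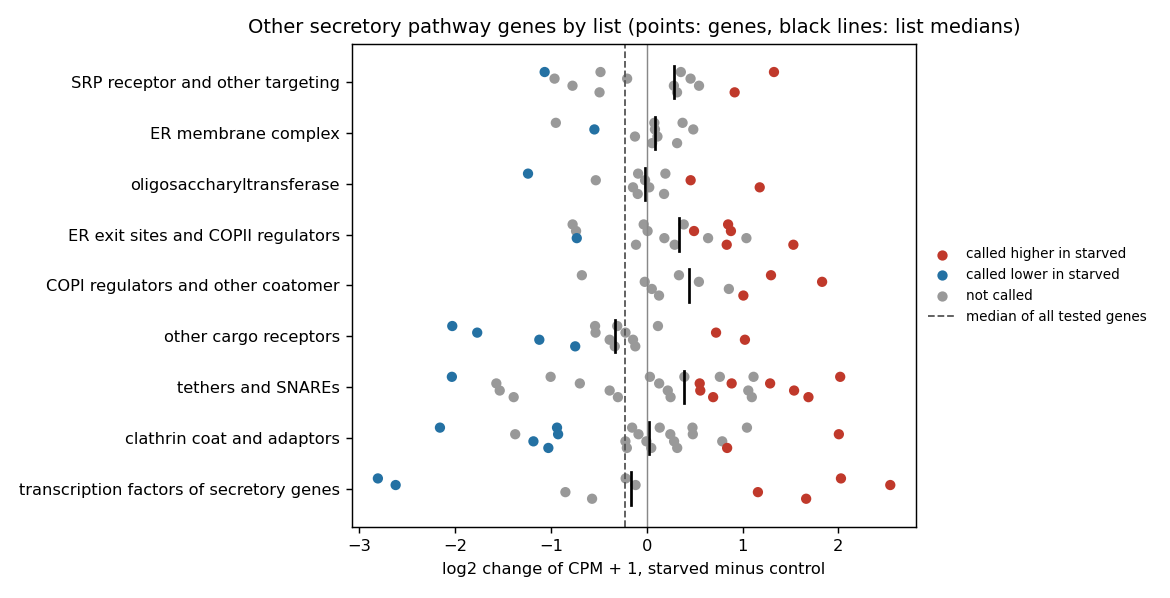
Log2 change (starved minus control, log2(CPM + 1) scale) of each tested gene in the 9 lists of other secretory genes, coloured by call, with a black line at each list's median and a dashed line at the median of all genes tested, -0.22. Of the tethers and SNAREs 8 of 25 were called higher and 1 lower, and of the clathrin coat and adaptors 2 of 22 were called higher and 5 lower. The shares over all genes tested were 17.2% higher and 26.1% lower.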

How the data were processed

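Column-purified total RNA of the AsPC-1 cells was turned into QIAseq UPX 3' Transcriptome libraries, per the labels' protocols; this chemistry reads transcripts from their 3' ends. The deposited values are CPM, with 36498 genes summing to 1000000 in each library. The submitters' processing notes name hg19; aligner, annotation, molecular identifiers and strand use: not given in the sources used here. Every deposited CPM value (100%) was a whole multiple of its library's smallest value above 0 (relative tolerance 1e-06), and the counts so recovered (141763 to 593248 a library) entered the count tests.

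Starved and control libraries, 5 each, were compared by limma-trend (limma 3.58.1 in R 4.3.3) on log2(CPM + 1), two-sided and without covariates. Genes entered at a mean of 5 CPM or more, and p-values were adjusted by Benjamini-Hochberg over all 11202 of them, with a threshold of 0.05. Ratios of paralogs were compared by two-sided exact permutation tests (scipy 1.17.1). The alternatives, 22 in all, changed the pseudocount (0.5, 5), the filter (none, 20 CPM), the scaling (median-of-ratios, TMM, quantile) or the test (DESeq2 1.42.0, edgeR 4.0.16 quasi-likelihood), added the replicate number as a block, or left out each library, or control replicates 1 and 2 together, whose library indices lie apart from the others. The last of them, thinning each library to 141763 counts, was added after seeing the data, as were the pair ARF1 and ARF4 and the alternatives for the other secretory genes. The scripts were tested on simulated data.

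The members and gene lists were chosen with earlier results of these data known. Members called with an absolute log2 change of at least 1, or among the 2 called members of their role with the smallest p, are given library by library. From each other list up to 3 called genes with the smallest p are named.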

Additional observations from a re-analysis of the deposited data

Results flagged for a closer look

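Of 104 groups of 5 libraries examined (2 groups for each of the tested members and role sums), 3 had a library far from its neighbours, where chance alone gives about 1 in 20 groups. SRP14 stood at 271 CPM in starved replicate 5, against 174 to 195 CPM in the other 4 starved libraries. SPCS2 stood at 144 CPM in starved replicate 3, against 218 to 238 CPM in the other 4 starved libraries. Neither gene was called. LMAN1 stood at 54.1 CPM in control replicate 4, against 40.4 to 44.2 CPM in the other 4 control libraries, and its fall does not rest on that library, since it was called in all 22 alternatives.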

How the results depend on the processing

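Of the 17 called members 9 were called in all 22 alternatives (SEC61G, SRP54, SPCS1, SEC31A, SEC24A, COPZ1, ARF4, LMAN1 and KDELR1), and none of the 17 changed sign in any of them. Of the 27 uncalled members 13 changed sign and 6 were called in some alternative. Against 12 higher and 5 lower members in the fit reported, leaving out each library gave 8 to 13 higher and 4 to 6 lower members. In these fits 15.2 to 16.8% of all genes were higher and 22.7 to 25.3% were lower. The median log2 change of the members was 0.04 to 0.13, and 4341 to 4649 genes were called in all. The 8 higher members came without control replicate 1, where 16.8% of all genes were higher. Without control replicates 1 and 2 together 7 members were higher and 3 lower (15.1 and 19.7% of all genes), and with DESeq2 3 were lower (21.4%). The median log2 change of the members, 0.09, was 0.18 with TMM, 0.18 with median-of-ratios and 0.20 with quantile scaling, 0.21 with edgeR and 0.19 after thinning, while the median of all genes (-0.22) shifted by 0.21 with quantile normalization, 0.14 with edgeR and 0.12 with DESeq2. Thinning gave 8 higher and 4 lower members, against 13.2% higher and 19.4% lower of all genes. It also gave 10 lower other secretory genes (16 in the fit reported) and 3661 called genes in all (4850 in the fit reported). The cause of these shifts was not tested. With the replicate block, 13 members were higher and 5 lower (17.1 and 25.8% of all genes), and 4801 genes were called. After each gene's group mean was subtracted, the remaining deviations of same-numbered libraries correlated at -0.016 to 0.023. These values give no sign that the numbers pair the libraries. They cannot exclude it, because deviations in libraries of so few counts are noisy. Of the 25 other genes named by rule 20 were called in all alternatives. At 1.69 to 7.05 CPM per count, SEC24A, SEC24B, SEC24D, SEC61A2, LMAN1 and KDELR3 rest on few counts.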

Other observations

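Beyond the ER and the early Golgi, 22 genes of the clathrin coat and its adaptors were tested, of which 2 were higher and 5 were lower in starved cells. Both counts lie below the shares of all genes tested, of which 17.2% were higher and 26.1% were lower. AP3S1, the small sigma subunit of the AP-3 adaptor of endosomes, had 782, 709, 623, 671 and 796 CPM in starved replicates 1 to 5, against 148, 200.2, 144, 216 and 187 CPM in control replicates 1 to 5. Every starved library was far above every control library and the log2 change of 2.01 (SE 0.13, limma adjusted p = 4.14e-11) passed the test. AP1S3 and AP1S1, sigma subunits of the AP-1 adaptor of the trans-Golgi network, were lower. AP1S3 averaged 20.7 ± 4.73 CPM in starved and 95.4 ± 18.4 CPM in control libraries (log2 change -2.16, limma adjusted p = 1.47e-06), and AP1S1 averaged 121 ± 26.8 CPM in starved and 273 ± 34.9 CPM in control libraries (log2 change -1.18, limma adjusted p = 3.56e-06).

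Of 10 tested genes listed as transcription factors of secretory genes, 4 were higher (XBP1, ATF6, CREB3 and ERN1) and 2 were lower (CREB3L3 and CREB3L4). ERN1 does not itself encode a transcription factor. Of all genes tested, 17.2% were higher and 26.1% were lower. CREB3, a factor released from the ER membrane by cleavage in the Golgi, had 139.9, 174, 112, 134 and 127 CPM in starved replicates 1 to 5, against 35.3, 29.5, 22.4, 29.5 and 53.1 CPM in control replicates 1 to 5. XBP1, the factor made by unconventional splicing when the ER is stressed, had 187, 183, 172, 159 and 138 CPM in starved replicates 1 to 5, against 21.2, 61.1, 64.6, 73.8 and 60.7 CPM in control replicates 1 to 5. ATF6, which also needs cleavage in the Golgi, averaged 131 ± 22.8 CPM in starved and 58.8 ± 15.3 CPM in control libraries (log2 change 1.16, limma adjusted p = 0.000103). For CREB3 and XBP1 the groups did not overlap, with log2 changes of 2.03 (limma adjusted p = 5.41e-07) and 1.66 (limma adjusted p = 2.27e-05). The tags say nothing of splicing or cleavage.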
